A study of Mus musculus with 8 samples.

Results

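The oligoadenylate synthetase (OAS) family was examined in mouse bone marrow-derived macrophages (BMDMs) after knockdown of the long non-coding RNA MAARS. The genes described are Oas1a, Oas1b, Oas1c, Oas1g, Oas2, Oas3, Oasl1 and Oasl2, 8 of the 49315 genes in the count table, each found by matching its Ensembl identifier to its symbol in GENCODE M21. All 8 passed the filter on low counts, which kept 13051 genes. They were selected on their measured difference between the MAARS gapmeR and control gapmeR libraries, so that difference is given as a description without a test.

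BMDMs were grown from femur and tibia marrow of C57BL/6 mice in IMDM with 10% FBS and 10 ng/ml mMCSF, which drives marrow cells to become macrophages. They were transfected by lipofection with a locked nucleic acid gapmeR, an antisense oligonucleotide which recruits RNase H to cut the RNA it pairs with, either against MAARS or with the sequence named negative control #1. The sample labels give the gapmeR at 25 nM, and no untransfected cells were part of the comparison. Ribodepleted RNA was sequenced from 4 control gapmeR libraries (replicates 2, 5, 6 and 7) and 4 MAARS gapmeR libraries (replicates 9, 11, 13 and 15). No source used here ties the libraries to separate animals, so p-values measure the spread between these libraries, which may be technical.

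OAS enzymes bind double-stranded RNA and then join ATP into short 2′-5′-linked oligoadenylates, called 2-5A. 2-5A is a signalling molecule of the antiviral response, which slows translation and viral growth. The genes are classical interferon-stimulated genes, and macrophages keep a basal level of their transcripts that rises after infection. Oas1, Oas2 and Oas3 proteins carry increasing numbers of the same basic unit, and the mouse has many Oas1 copies and a pair of OAS-like genes whose proteins end in ubiquitin-like domains.

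The promoters of these genes are known for the interferon-stimulated response element, a motif read by interferon regulatory factors. It was searched as GAAA, any 2 bases, GAAA on both strands of RefSeq windows reaching from 250 bases before to 50 bases after each start. Windows on build GRCm38.p6 were matched by symbol for 6 of the 8 members, Oas1a, Oas1c, Oas1g, Oas3, Oasl1 and Oasl2. A match lay in the windows of 4 of them, and in 3.44% of the 32851 windows of all genes. The stretches around these matches are shown 5′ to 3′ on the strand of the gene, up to 60 bases before the match and ending at or before the start, because the copies share the motif letter for letter. Capitals mark the bases covered by a match.
Oas3, chr5:120777695-120777794, minus strand: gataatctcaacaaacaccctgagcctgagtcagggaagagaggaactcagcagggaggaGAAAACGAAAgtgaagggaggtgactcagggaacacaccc
Oas1c, chr5:120812583-120812688, minus strand: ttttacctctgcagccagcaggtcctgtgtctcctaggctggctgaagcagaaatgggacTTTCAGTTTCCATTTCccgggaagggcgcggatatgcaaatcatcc
Oas1g, chr5:120887614-120887691, minus strand: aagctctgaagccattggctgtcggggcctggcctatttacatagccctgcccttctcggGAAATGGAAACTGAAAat
Oas1a, chr5:120907526-120907605, minus strand: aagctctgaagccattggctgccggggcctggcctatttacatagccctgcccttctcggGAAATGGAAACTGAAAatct

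Oas1a and Oas1g each held 2 matches that overlap, at bases -20 to -11 and -14 to -5 from the start of Oas1a and at bases -18 to -9 and -12 to -3 from that of Oas1g. Their printed stretches were identical at 77 of 78 bases. Oas1c held 2 overlapping matches as well, read on the opposite strand at bases -114 to -105 and -108 to -99. A pair or more of matches was found in 0.225% of all windows. Read on the strand of the motif, the overlapping matches of all 3 genes were the same run of 16 bases, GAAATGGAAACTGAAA, which 7 of the 32851 windows held. These windows belonged to 5 genes, the other 2 being Apol9a and Apol9b, apolipoprotein L genes named only because they hold the run. In the Oas1c promoter the run pointed towards Oas1b, which is transcribed in the opposite direction, and lay 22 to 7 bases before the annotated start of Oas1b. Oas3 held 1 match, at bases -75 to -66. The gamma-activated site, a motif known from genes induced by interferon gamma and searched as TTC, any 3 bases, GAA, had 1 match among the members, at bases -98 to -90 of Oas1a, and was found in 8.30% of all windows. These letters were in neither the Oasl1 nor the Oasl2 window for either motif.

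The targeted transcript, annotated as Gm14461, held 238, 296, 240 and 249 counts in the control libraries, given in the order of replicates 2, 5, 6 and 7. The MAARS gapmeR libraries, in the order of replicates 9, 11, 13 and 15, held 163, 161, 159 and 135 counts, and both orders are kept throughout. In CPM, its counts divided by library size and adjusted with TMM factors, it ranged from 12.2 to 15.1 in control libraries and from 5.85 to 7.71 in MAARS gapmeR libraries, a log2 fold change of -0.95. Library totals ran from 19287279 to 20567123 counts in the control group and from 20839671 to 24541205 in the MAARS gapmeR group. Of the 13051 genes tested, edgeR's quasi-likelihood test at an adjusted p under 0.05 called 24.0% lower and 21.3% higher in MAARS gapmeR libraries, and 22.8% had every MAARS gapmeR library below every control library. All 7 macrophage markers were above 0 in every library, with a summed level of 13759 to 16990 CPM in control and 16853 to 20083 CPM in MAARS gapmeR libraries. Most of that sum was Lyz2, with 8048 to 11042 CPM in control and 11813 to 14677 CPM in MAARS gapmeR libraries. Fcgr1 and Cd68 were lower, Csf1r, Itgam, Mertk and Lyz2 higher, and Adgre1 was not called. Of 18 markers of other cell types, 10 were above 0 in every library and none was called, and the T cell markers Cd3e and Cd3d held at most 2 counts. Their summed level was 492 to 1157 CPM in control and 749 to 1283 CPM in MAARS gapmeR libraries, most of it the collagens Col1a1 and Col1a2, without which it was 56.6 to 158 and 60.7 to 96.2 CPM. Their part in the results on the OAS genes was not tested.

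All 8 OAS members were lower in MAARS gapmeR than in control libraries, with no overlap between the groups for any of them. Over all genes tested, 22.8% had every MAARS gapmeR library below every control library, and the members were selected on this difference. The log2 fold change had a median of -1.77 over the members, against 0.01 over all genes tested, and nothing is read from it because the members were selected on it. Oasl1 stood 11.6-fold lower, Oas3 6.85-fold and Oas1g 4.38-fold, while Oas1c stood 2.24-fold lower. In whole cultures, fewer cells expressing a gene and less of its RNA per cell cannot be told apart. Summed over the 8 genes, 28508 to 35923 counts fell on the family in control libraries, 0.146% to 0.179% of the library, and 4533 to 11670 counts, 0.0218% to 0.0546%, in MAARS gapmeR libraries.

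**Figure D1:**
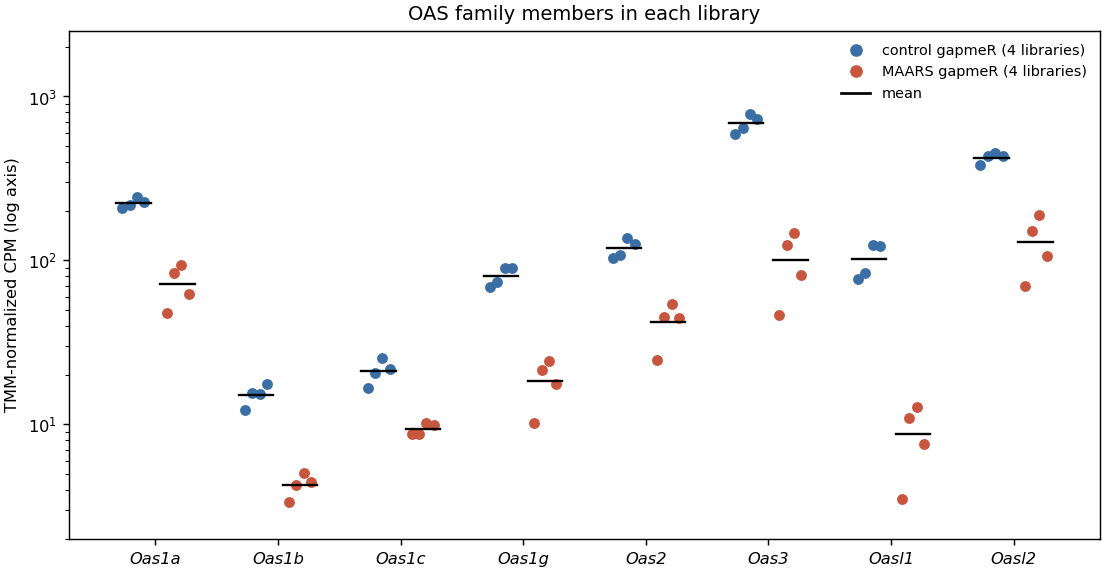
Normalized CPM on a log axis for the 8 OAS members, 1 point per library, with 4 control gapmeR libraries in blue (replicates 2, 5, 6 and 7 from left to right) and 4 MAARS gapmeR libraries in red (replicates 9, 11, 13 and 15) and a line at each mean. The groups do not overlap for any member, and replicate 9 is the lowest red point of every member.

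Among the single-unit enzymes, Oas1a, an active 2-5A synthetase at chr5:120896256-120907521 on the minus strand, had 210.1, 219, 245 and 227 CPM in the control libraries. The MAARS gapmeR libraries had 47.8, 83.5, 94.2 and 62.1 CPM. The control libraries sat close together, whereas the MAARS gapmeR libraries spread over a 1.97-fold range with replicate 9 lowest. The log2 fold change was -1.65 (SE 0.17).

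Oas1g, another active copy at chr5:120876142-120887613 on the minus strand, had 69.2, 74.1, 90.05 and 89.4 CPM in the control libraries. Its levels in the MAARS gapmeR libraries were 10.2, 21.4, 24.2 and 17.7 CPM. The highest MAARS gapmeR library was thus far below the lowest control library, and the log2 fold change was -2.13 (SE 0.20). Oas1a and Oas1g are close copies: 40.9% of the 100-base words of the Oas1a transcripts occurred in Oas1g and 31.2% of those of Oas1g in Oas1a, so the division of reads between them is uncertain. Their summed level does not rest on how reads were divided between the 2 genes, and it was 306 ± 24.8 CPM (mean ± SD, n = 4) in control and 90.3 ± 26.8 CPM (n = 4) in MAARS gapmeR libraries, a log2 ratio of -1.76. How reads fitting both genes were treated is not given. If they were left uncounted, they are missing from this sum and from the level of each gene. The ratio of Oas1g to Oas1a counts was 0.330 to 0.393 in control libraries and 0.214 to 0.285 in MAARS gapmeR libraries, so the ratio was lower in every MAARS gapmeR library. No 100-base word of the other 6 members occurred in another gene of the OAS family.

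Oas1b, the gene at chr5:120812635-120824163 on the plus strand that is known for resistance to flaviviruses, is annotated as a polymorphic pseudogene, and its C57BL/6 allele is known to encode a truncated protein. It was the scarcest member, with 12.2, 15.5, 15.4 and 17.6 CPM in control and 3.36, 4.26, 5.05 and 4.46 CPM in MAARS gapmeR libraries. The counts behind these levels were 238 to 359 and 71 to 110, and the log2 fold change was -1.82 (SE 0.14). The lowest control library stood well above the highest MAARS gapmeR library.

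Oas1c, a copy known to lack synthetase activity, lies at chr5:120800194-120812514 on the minus strand, head to head with Oas1b. Its levels were 16.7, 20.5, 25.3 and 21.8 CPM in control and 8.70, 8.75, 10.2 and 9.97 CPM in MAARS gapmeR libraries. The difference was the smallest of the 8 in log2 fold change, at -1.16 (SE 0.12), and the MAARS gapmeR libraries differed only 1.18-fold among themselves. The antisense gene Gm43069 overlaps 9.44% of its exon length, and that gene held 0 to 5 counts per library. The strand setting of the counting is not given in the sources used here.

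Oas2, whose protein holds a doubled OAS unit, lies at chr5:120730333-120749853 on the minus strand. Control libraries had 104, 108, 138 and 127 CPM and MAARS gapmeR libraries 24.8, 45.1, 54.0 and 44.6 CPM. The spread in each group was 1.33-fold and 2.18-fold, and the log2 fold change was -1.50 (SE 0.18).

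Oas3, the largest enzyme of the family and known to prefer long double-stranded RNA, lies beside Oas2 at chr5:120753098-120777661 on the minus strand. It took the most counts of any member in control libraries, at 588.5, 642, 779.7 and 728 CPM. In MAARS gapmeR libraries it had 46.6, 124, 148 and 81.4 CPM. Replicate 9 was 3.17-fold below replicate 13, and the log2 fold change was -2.78 (SE 0.28). The ratio of Oas2 to Oas3 counts was 0.168 to 0.177 in control libraries, nearly the same in each, and 0.363 to 0.549 in MAARS gapmeR libraries, where it was highest in replicates 9 and 15.

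Oasl1, an OAS-like protein without synthetase activity that is known to hold back translation of the Irf7 messenger, lies in a separate locus at chr5:114923240-114937915 on the plus strand. It had 76.9, 84.0, 124 and 122 CPM in control libraries. In MAARS gapmeR libraries it had 3.50, 10.9, 12.8 and 7.63 CPM, from 74, 275, 278 and 176 counts. No member differed more between the groups or varied more among the MAARS gapmeR libraries, with a log2 fold change of -3.54 (SE 0.29) and a 3.65-fold range. An antisense gene, Gm13822, overlaps 1.46% of its exon length, held 2 to 18 counts per library and was itself called lower, with a log2 fold change of -2.23 (edgeR adjusted p = 0.000781).

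Oasl2, an OAS-like protein that keeps synthetase activity, lies beside Oasl1 at chr5:114896936-114912234 on the plus strand. Control libraries had 382, 432, 451 and 432 CPM, and MAARS gapmeR libraries had 69.4, 151, 188 and 107 CPM. The log2 fold change was -1.72 (SE 0.23), with a 2.71-fold range among the MAARS gapmeR libraries. The ratio of Oasl1 to Oasl2 counts was 0.194 to 0.282 in control and 0.0504 to 0.0724 in MAARS gapmeR libraries, so the ratio was lower in every MAARS gapmeR library.

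To set the members in order, their levels were taken per kilobase of merged exon, whereas the CPM levels and count ratios above are not corrected for length. In control libraries Oas1a was highest at 120 ± 7.95 CPM per kilobase (mean ± SD, n = 4), above 97.0% of the genes tested. Oas3 followed at 96.8 ± 12.1, Oasl2 at 66.6 ± 4.61, Oasl1 at 39.0 ± 9.49, Oas1g at 34.5 ± 4.54, Oas2 at 26.7 ± 3.59, Oas1c at 8.77 ± 1.47 and Oas1b at 7.61 ± 1.13 CPM per kilobase. The libraries of Oas1a (111 to 130.1 CPM per kilobase) and Oas3 (83.3 to 110.3) came close without overlapping. Ranges over the libraries overlapped between Oasl1 and Oas1g, between Oas1g and Oas2, and between Oas1c and Oas1b. Compared within each control library, Oas1g stood above Oas2 and Oas1c above Oas1b in all 4. Oasl1 and Oas1g were not separated, since Oas1g stood above Oasl1 in replicate 2 and below it in the others. In MAARS gapmeR libraries the order was Oas1a, Oasl2, Oas3, Oas2, Oas1g, Oas1c, Oasl1 and Oas1b, with Oas1a at 38.1 ± 11.1 and Oasl1 at 3.34 ± 1.56 CPM per kilobase (n = 4 each). Ranges over the libraries overlapped between all neighbours in that order except Oas1g (4.37 to 10.3 CPM per kilobase) and Oas1c (3.62 to 4.26). Compared within each MAARS gapmeR library, the order from Oas1a down to Oas1c was nevertheless the same in all 4. The place of Oasl1 varied, above Oas1c in replicates 11 and 13 and below Oas1b in replicate 9. The top of the order depended on the length used: with the longest transcript in place of the merged exons, Oas3 stood at 145, Oasl2 at 136 and Oas1a at 120 CPM per kilobase in control libraries, and Oasl2 (41.3) stood above Oas1a (38.1) in MAARS gapmeR libraries.

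The makeup of the family differed between the groups as well. The members summed to 400 ± 43.1 CPM per kilobase (n = 4) in control and 99.2 ± 32.6 (n = 4) in MAARS gapmeR libraries. Of this sum Oas3 made up 23.8%, 23.9%, 24.7% and 24.4% in the control libraries. In the MAARS gapmeR libraries it made up 11.1%, 15.3%, 15.5% and 13.1%. The share of Oasl1 was 8.42% to 11.05% in control and 2.26% to 3.65% in MAARS gapmeR libraries. Oas1a moved the other way in share, from 28.5% to 31.8% in control to 37.1% to 42.7% in MAARS gapmeR libraries, and so did Oas2, from 6.40% to 6.93% to 8.83% to 11.4%. Oas1g kept overlapping shares, 8.35% to 9.04% and 7.35% to 8.57%. These shares follow from the fold changes above and are a description, not a separate result.

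**Figure D2:**
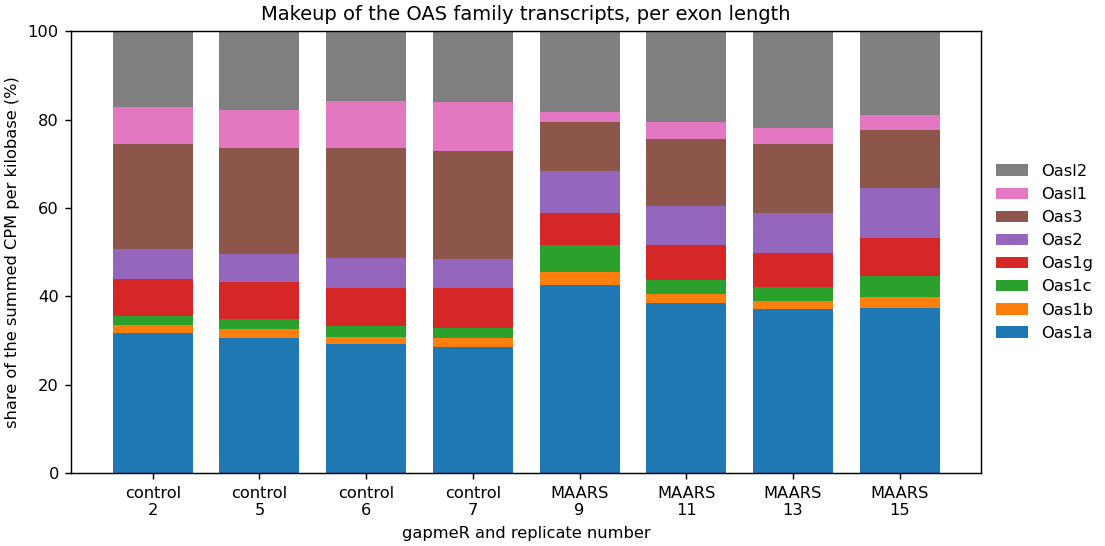
Stacked bars give the share, in percent of the summed CPM per kilobase of merged exon, that each OAS member made up in each of the 8 libraries. Oas3 (brown) and Oasl1 (pink) take smaller shares in the MAARS gapmeR libraries, 11.1% to 15.5% and 2.26% to 3.65%, and Oas1a (blue) takes a larger one, 37.1% to 42.7%.

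Within each group the members moved together across libraries, a pattern that does not use the difference between groups. Control replicate 2 was the lowest control library in CPM for 8 of 8 members, against 27.2% of all genes tested. Control replicate 6 was the highest for 7 of 8, against 27.1%, the exception being Oas1b, which was highest in replicate 7. Among MAARS gapmeR libraries, replicate 9 was the lowest for 8 of 8 members, against 28.4% of all genes, and replicate 13 the highest for 8 of 8, against 24.7%. For Oas1c, replicates 9 and 11 were nearly tied, at 8.70 and 8.75 CPM. The order replicate 13, 11, 15, 9 held for every member but Oas1b and Oas1c, in which replicate 15 stood above replicate 11. The members share libraries and the copies share sequence, so their common order is not 8 independent observations. The order was not particular to the members: among 10 other sensors and effectors of double-stranded RNA and cytosolic DNA, control replicate 2 was lowest for 8, control replicate 6 highest for 9, MAARS gapmeR replicate 9 lowest for 9 and MAARS gapmeR replicate 13 highest for 8. It held less in 11 interferon signalling genes. There control replicate 2 was lowest for 9 and control replicate 6 highest for 8, but MAARS gapmeR replicate 9 was lowest for 5 and replicate 13 highest for 6. Among 3 other genes of the 2-5A pathway, MAARS gapmeR replicate 9 was lowest for 1.

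Most members spread widely between MAARS gapmeR libraries. The SD of log2 CPM had a median of 0.52 over the members in the MAARS gapmeR group and 0.19 in the control group. Over the 9054 genes at least as abundant as the scarcest member it was 0.08 and 0.09. The range ran from 1.18-fold in Oas1c and 1.505-fold in Oas1b to 3.17-fold in Oas3 and 3.65-fold in Oasl1. MAARS itself was highest of its group in MAARS gapmeR replicate 9, at 7.71 CPM, where the members were lowest, and lowest in replicate 15, at 5.85 CPM. Replicate 13, where the members were highest, was close to replicate 9 in MAARS at 7.31 CPM. With 163 counts in replicate 9 and 159 in replicate 13, their order in MAARS was not resolved. Replicate 9 also had the lowest library total of its group, and other cell type markers were lowest there for 6 of 10 genes. What moved the members between libraries was not tested.

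**Figure D3:**
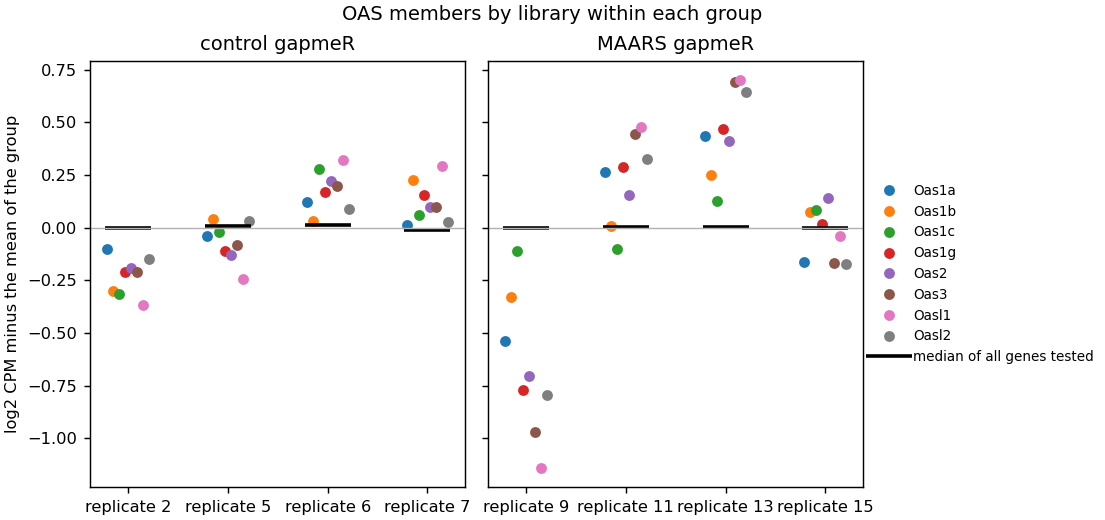
Each point is the log2 CPM of 1 OAS member in 1 library minus the mean of its group, with control gapmeR libraries on the left and MAARS gapmeR libraries on the right, and black bars give the median of all genes tested. All 8 members lie below 0 in control replicate 2 and in MAARS gapmeR replicate 9 and above 0 in control replicate 6 and MAARS gapmeR replicate 13, while the median of all genes stays near 0.

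The remaining OAS genes of the mouse, Oas1d, Oas1e, Oas1f and Oas1h, did not pass the filter. Oas1e was at 0 in every library and no library held more than 11 counts of any of the 4. Oas1h, the only one with counts in every library, held 5 to 11 in control and 1 to 5 in MAARS gapmeR libraries, and was called lower with DESeq2 and when no filter was used. Nearly all counts on the family thus came from the 8 members.

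Of 3 genes listed as acting in the 2-5A pathway downstream of the synthetases, 1 was called lower and 0 higher, against 24.0% and 21.3% of all genes tested, with a median log2 fold change of -0.08. Abce1, a ribosome recycling factor also known to restrain the pathway, was lower with 92.5 to 111 CPM in control and 69.7 to 85.3 CPM in MAARS gapmeR libraries, a log2 fold change of -0.36 (SE 0.07, edgeR adjusted p = 0.00231). Pde12, a phosphodiesterase that degrades 2-5A, had a log2 fold change of -0.08 (SE 0.05) that was not called (edgeR adjusted p = 0.178), although its groups did not overlap at 28.6 to 29.6 against 27.0 to 28.2 CPM. Akap7, whose protein has a similar 2-5A phosphodiesterase domain, had a log2 fold change of 0.16 (SE 0.09), not called either (edgeR adjusted p = 0.187).

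**Figure D4:**
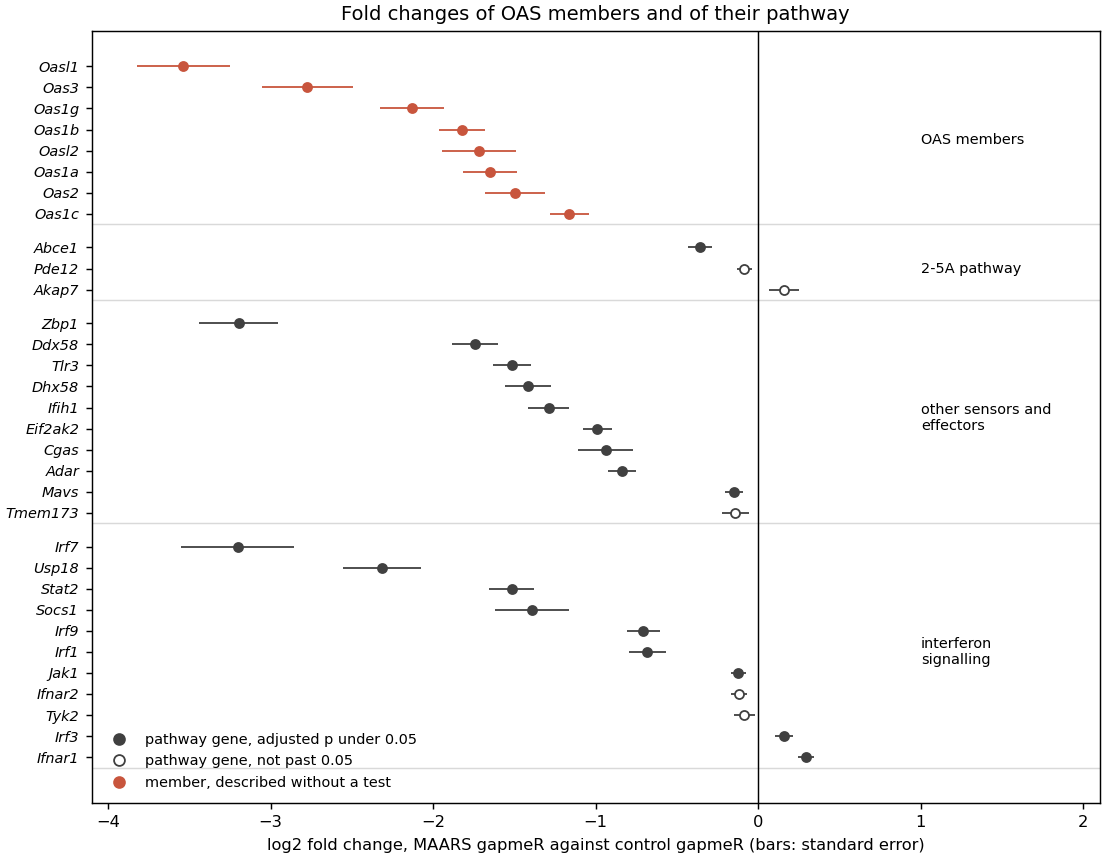
Log2 fold changes of MAARS gapmeR against control gapmeR libraries (4 against 4) with standard errors as bars, for the 8 OAS members in red, described without a test, and for genes of their pathway in grey, filled where the edgeR adjusted p was under 0.05. Pde12 and Akap7 lie close to 0, whereas Zbp1 (-3.20) and Irf7 (-3.20) lie near Oas3 and Oasl1.

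Other sensors and effectors of double-stranded RNA and cytosolic DNA were lower for 9 of 10 genes and higher for 0, against 24.0% and 21.3% of all genes tested, with a median log2 fold change of -1.14. Because this list was chosen with earlier results of these data known, its count is a description and nothing is read from it. Zbp1, a sensor of Z-form nucleic acid linked to cell death, had a log2 fold change of -3.20 (edgeR adjusted p = 5.27e-06). The RNA helicase receptors Ddx58 (RIG-I), Ifih1 (MDA5) and Dhx58 (LGP2) had log2 fold changes of -1.74, -1.29 and -1.42. Tlr3, the endosomal receptor for double-stranded RNA, had -1.52 and Eif2ak2, the kinase PKR, -0.99. The DNA sensor Cgas (-0.94) and Adar (-0.84), which edits adenosines in double-stranded RNA, were lower too. The shared adaptors moved least: Mavs had a log2 fold change of -0.15 (edgeR adjusted p = 0.0474) that lost its call when any library but MAARS gapmeR replicate 9 or control replicate 7 was left out (adjusted p 0.0623 to 0.119), and Tmem173, the adaptor STING, had -0.14 and was not called (edgeR adjusted p = 0.198).

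Genes of type I interferon receptor signalling, which induces the OAS genes, were lower for 7 of 11 and higher for 2 of 11, against 24.0% and 21.3% of all genes tested, with a median log2 fold change of -0.68. Nothing is read from these counts either, since this list too was chosen with earlier results of these data known. Irf7, the factor that amplifies interferon transcription, had a log2 fold change of -3.20. Its levels were 1047 to 1602 CPM in control and 59.3 to 238 CPM in MAARS gapmeR libraries. Stat2 and Irf9, which bind the response element in a complex, had log2 fold changes of -1.52 and -0.71. The feedback inhibitors Usp18 and Socs1 had -2.31 and -1.39, and Irf1, a factor that also reads the element, had -0.68. The receptor chain Ifnar1 was higher, with a log2 fold change of 0.29, while Ifnar2 (-0.12, edgeR adjusted p = 0.0752) and the kinase Tyk2 (-0.09, edgeR adjusted p = 0.287) were not called. Jak1 (-0.12, edgeR adjusted p = 0.04999) and Irf3 (0.16, edgeR adjusted p = 0.0334), a factor activated upstream of interferon, lay near the threshold. With 1 library left out, Jak1 kept its call only without MAARS gapmeR replicate 9 or control replicate 2 (adjusted p 0.0688 to 0.131 without the others), and Irf3 only without MAARS gapmeR replicate 13 (adjusted p 0.0543 to 0.0875 without the others). Leaving out control replicate 2 brought Ifnar2 (adjusted p = 0.0167) and Tyk2 (adjusted p = 0.0491) past the threshold.

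Interferon transcripts themselves were at or near 0. None of the 21 interferon ligand genes listed passed the filter, 16 were at 0 in all 8 libraries, and no library held more than 2 counts of any. Ifnb1, the interferon that macrophages make first, held 0 to 2 counts, so no difference between the groups was detectable at this depth.

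The members lie in 2 loci of chromosome 5 on GRCm38. One spans chr5:114896936-114937915 with Oasl1 and Oasl2, and the other spans chr5:120730333-120921652 with 10 OAS genes, of which 6 are members and Oas1d, Oas1e, Oas1f and Oas1h lie between or beside them. Of the 20 nearest genes tested, 5 on each side of each locus, 6 were called lower and 8 higher, against 24.0% and 21.3% of all genes tested, with a median log2 fold change of 0.11. Trafd1, a negative regulator of innate signalling, had the lowest value of these at -1.05, and Tpcn1, an endolysosomal ion channel, the highest at 0.57. Of the others called, Tchp (-0.55), Ptpn11 (-0.21), Hectd4 (-0.20), Ddx54 (-0.19) and 2210016L21Rik (-0.16) were lower, and Acads (0.40), Unc119b (0.33), Git2 (0.32), Sppl3 (0.27), Gltp (0.22), Ankrd13a (0.17) and Rpl6 (0.13) were higher. Of these, 2210016L21Rik, Ankrd13a and Rpl6 lost their calls without MAARS gapmeR replicate 9, with adjusted p of 0.107, 0.0991 and 0.0826, and without several other single libraries. Each of these 20 neighbours lay closer to 0 than Oas1c, the member with the smallest difference. Nothing is read from that, because the members were selected on their difference and the neighbours were not. The antisense gene Gm13822, which lies between Oasl2 and Oasl1 and is not among the 20, had -2.23. The nearest tested gene beyond the Oasl1 end, 2210016L21Rik, differed by -0.16.

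**Figure D5:**
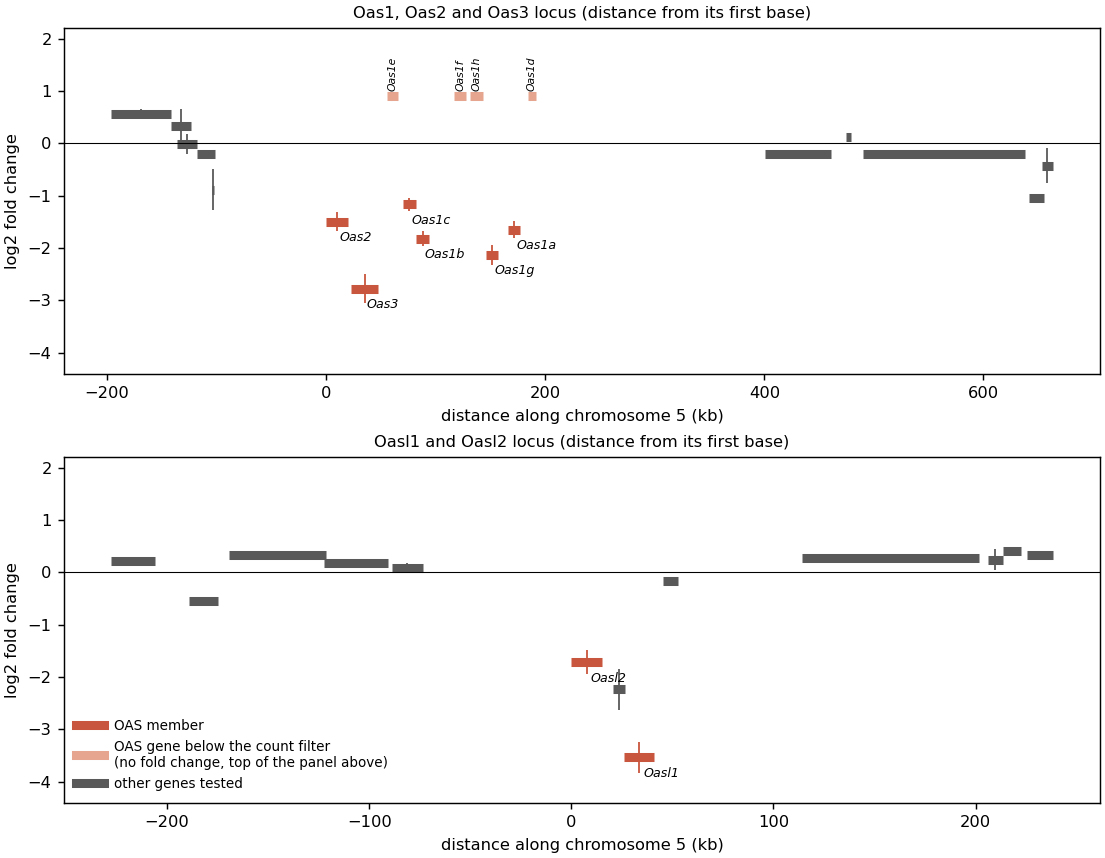
Log2 fold change, with standard error, of each gene tested along the 2 OAS loci, drawn as a bar from its first to its last base in kilobases from the first base of the locus. Members (red) lie between -1.16 and -3.54, the genes on either side (grey) between -1.05 and 0.57, and the antisense gene Gm13822 at -2.23 between Oasl2 and Oasl1, while 4 OAS genes below the filter are drawn at the top without a value.

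The genes whose profile over the 8 libraries was most like the mean profile of the members, by the root mean square difference of log2 CPM after centring each gene, were H2-T24 (0.08), Xaf1 (0.08), Helz2 (0.09), Gm12250 (0.10) and Ly6e (0.11). Their log2 fold changes were -2.04, -2.01, -2.07, -2.20 and -2.23. The members themselves lay at 0.07 (Oas1g) to 0.81 (Oasl1) from their own mean profile. These 5 genes were closer to it than 7 of its 8 members were. Nothing is read from that, because the 5 were picked as the nearest of all genes tested outside the family. The points share the same 8 libraries, and all of these genes share the difference between the groups.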

How the data were processed

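RNA-Seq of 4 control gapmeR and 4 MAARS gapmeR libraries of BMDMs was used, grouped by their labels. The authors trimmed reads with Trimmomatic 0.36, aligned them with STAR 2.5.2b to mm10 (GRCm38) with Ensembl gene models and used featureCounts (Subread 1.5.2) for counting. They deposited unnormalized counts of 49315 genes, 99.47% of which matched GENCODE M21. How strand and multiply mapped reads were treated is not given in the sources used here. The gapmeR amount reads 25 nM in the labels and in nmol in the methods.

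From these counts, edgeR 4.0.16 (R 4.3.3) was run with filterByExpr (minimum count 10, minimum total 15), TMM factors (0.955 to 1.03), glmQLFit and glmQLFTest, with Benjamini-Hochberg adjustment over 13051 genes and a threshold of 0.05. The biological coefficient of variation was 8.51%. Library totals of 19287279 to 24541205 counts limit the precision. Counts of replicates differed by 4.02 to 14.1 in chi-square per gene, above the sampling noise, so each library was kept. The procedure was tested on simulated data.

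The members and gene lists were chosen with earlier results of these data known. The named genes are the 8 members, all genes of the 2-5A, sensing and signalling lists, called neighbours, interferon ligands by count, and the 5 genes nearest in profile. Some genes of these lists are not reported here and were left out of the lists' counts. Alternatives were RLE and upper-quartile factors, DESeq2 1.42.0, limma-voom (limma 3.58.1), no filter, each library left out, and the longest transcript as length. Promoter sequences are from RefSeq, and motif matches are descriptions.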

Additional observations from a re-analysis of the deposited data

Results flagged for a closer look

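Akap7, a 2-5A phosphodiesterase domain gene, stood at 17.3 CPM in MAARS gapmeR replicate 9, apart from the other 3 libraries of the group at 13.3 to 13.9 CPM, with a gap of 0.859 of the group's range, above Dixon's 95% critical value for 4 samples. By the same measure 3 neighbours of the OAS loci had a library apart from the rest of its group. 1500011B03Rik was low in MAARS gapmeR replicate 11, at 14.9 CPM, Git2 was high in MAARS gapmeR replicate 9, at 105.5 CPM, and Gm43579 was high in control replicate 6, at 0.919 CPM. No member was among these 4 of 132 groups of 4 libraries examined, and chance flags about 1 in 20 groups. The log2 fold change of Akap7 was 0.16 with all libraries and between 0.06 and 0.19 with 1 library left out. Replicate 9 was also the library in which all 8 OAS members were lowest.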

How the results depend on the processing

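The OAS members are described without a test, and their median log2 fold change ran from -1.94 to -1.62 with 1 library left out. Upper-quartile factors moved the median of all genes by 0.06, to 0.07, and the share of calls that were higher from 47.0% to 60.4% (3622 higher, 2379 lower). In the signalling list, 1 gene instead of 2 was called higher with no filter, and 1 to 2 with 1 library left out, since Irf3 kept its call only without MAARS gapmeR replicate 13. Of the OAS genes outside the members, DESeq2 and the fit with no filter each called 1 gene lower, Oas1h, where the count was 0. Mavs, Jak1, Irf3, Ankrd13a, 2210016L21Rik, Rpl6 and Hectd4 lost their calls under at least 1 alternative. Among the results examined, 1 changed sign: the neighbour Rita1, not called under any setting, had a log2 fold change of -0.0128 with all libraries, 0.0248 with limma-voom, 0.0488 with upper-quartile factors, and -0.188 to 0.0688 with 1 library left out. With the longest transcript as length, Oas3, Oasl2 and Oas1g stood at 145, 136 and 40.8 CPM per kilobase in control libraries in place of 96.8, 66.6 and 34.5. No paired analysis was possible because the groups share no replicate numbers. Depth limits Oas1d, Oas1e, Oas1f, Oas1h and the interferon ligands, and the cause of the differences between alternatives was not tested.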
